A study of Mus musculus with 4 samples.

Results

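The comparison described here set intestinal stem cells against progenitors of mice fed a high-fat diet (HFD), with 1 RNA sequencing library on each side. Its members were the genes with at least 20 counts in either HFD library, which left 10979 of the 18918 genes that had a count in any of the study's 4 libraries. The mice were C57BL/6 males of 71 weeks, and the sorted cells of 2 to 5 mice were pooled for a library. Cells were sorted by GFP: the labels call the GFP-high fraction intestinal stem cells and the GFP-low fraction progenitors. A second pair of libraries, GFP-high and GFP-low from mice on the control diet with no high-fat feeding, served here as the reference for the same contrast. Neither the gene that drives GFP nor the make-up of the diets is named in the labels, and it is not stated whether a diet's GFP-high and GFP-low cells were taken from the same animals.

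The lining of the small intestine is renewed from stem cells at the base of the crypts, which carry the R-spondin receptor Lgr5 and depend on Wnt signals. Their daughters, the progenitors, divide as they move up the crypt and commit either to the absorptive enterocyte lineage or to a secretory lineage of goblet, Paneth, enteroendocrine or tuft cells. Notch signalling between neighbouring cells takes part in that choice, and HNF4, HNF1, CDX and GATA factors drive genes of the absorptive programme. A fraction sorted on a dim reporter can hold cells at several of these steps, and in RNA from bulk cells a different share of a cell type and a different amount of RNA per cell cannot be told apart.

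The 2 HFD libraries held 6207080 counts (GFP-high) and 5327015 counts (GFP-low), and the control libraries 5201394 and 4677389. Levels are CPM (counts relative to a library size of 1e6) after scaling of the library sizes by the trimmed mean of M-values (TMM). With 1 library a group there is no replicate spread and no test. A gene was counted as higher in a fraction when it differed by at least 2-fold, with 0.5 CPM added to each level, and reached 5 CPM in the higher library. Intervals beside fold values are exact 95% intervals for the ratio of 2 counts. They cover counting error only, since each group has 1 library. The reads carry no molecular identifiers, so duplicate reads were counted as separate and the intervals may be too narrow. Folds were taken without the added 0.5 CPM, while log2 ratios and list medians include it, which understates differences of low genes. Mitochondrial messages took 17.1% and 16.8% of the counts of the GFP-high and GFP-low HFD libraries, whereas mitochondrial ribosomal RNA took 1.18% of HFD GFP-high and between 2.54% and 2.82% of the other 3 libraries; its part in the results was not tested.

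Of the 10979 genes, 664 (6.05%) were at least 2-fold higher in GFP-high cells and 947 (8.63%) were at least 2-fold higher in GFP-low cells. The control pair gave 567 (5.24%) and 971 (8.98%) of 10813 genes. The split of the HFD genes depended on the scaling, and with library totals in place of TMM it became 1067 higher and 692 lower. Large differences lay mostly on the progenitor side: 99 genes were at least 8-fold higher in GFP-low cells and 14 in GFP-high cells. Most of the transcriptome was shared, with 65.3% of the genes within 1.5-fold.

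**Figure D1:**
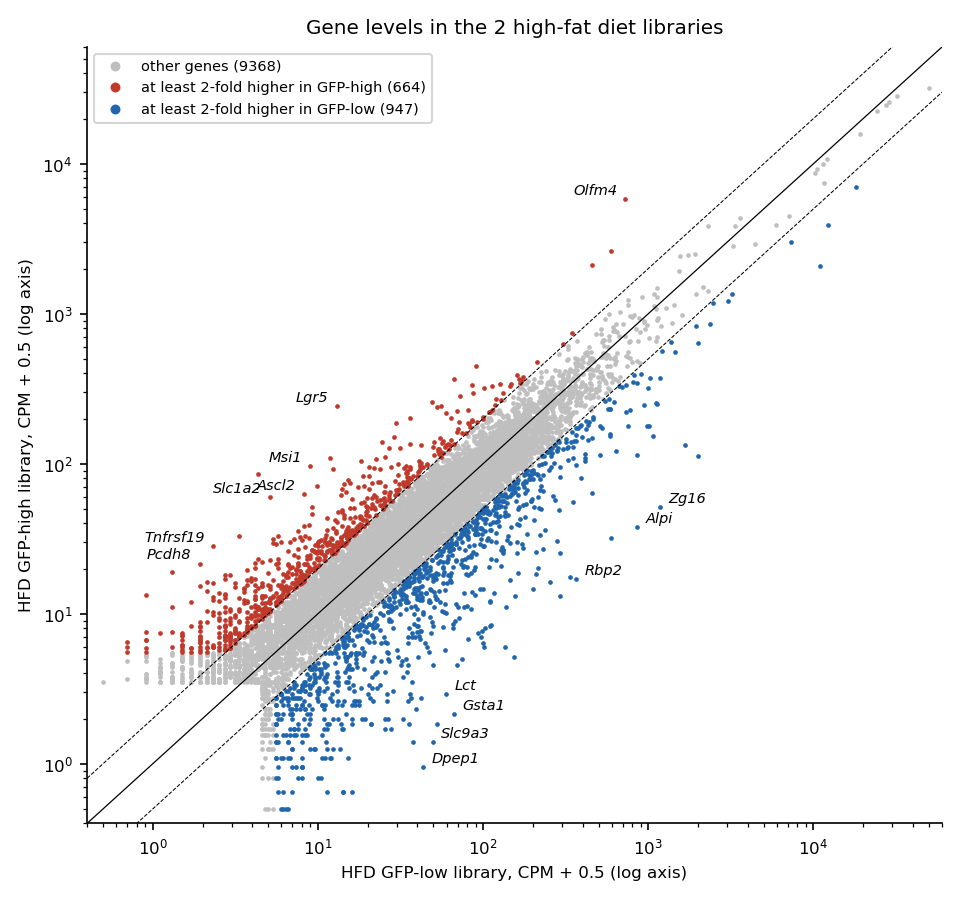
Level of each of the 10979 genes in the HFD GFP-low library (x axis) and the HFD GFP-high library (y axis), as CPM with 0.5 added, on log axes. The solid line marks equal levels and the dashed lines 2-fold; the 664 genes counted as higher in GFP-high are red and the 947 higher in GFP-low are blue, and the blue cloud reaches farther from the line.

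Lgr5, the R-spondin receptor that marks crypt base stem cells, had the largest log2 ratio on the stem cell side among annotated genes with at least 10 CPM, 4.22. It lies on chromosome 10, 115450311 to 115587780 of GRCm38. Its level was 242 CPM in GFP-high and 12.5 CPM in GFP-low, a difference of 19.3-fold (interval 15 to 25.3), and the control libraries held 241 and 12.7 CPM. The HFD and control pairs thus lay at almost the same 2 levels for this gene. Tnfrsf19 (Troy), a Wnt target that encodes a receptor of the TNF receptor family, stood at 27.9 CPM in GFP-high and 1.82 CPM in GFP-low, or 15.3-fold (interval 7.89 to 34.0). A promoter of Tnfrsf19 (RefSeq, GRCm38.p6, from 250 bases before to 50 after a start) is printed on the line below. It was chosen because it holds the TCF/LEF motif of the Wnt pathway, ATCAAAG, in capitals. The window lies inside the gene's annotated span, 60963875 to 61046490.
Tnfrsf19 chr14:61037938-61038237 (- strand): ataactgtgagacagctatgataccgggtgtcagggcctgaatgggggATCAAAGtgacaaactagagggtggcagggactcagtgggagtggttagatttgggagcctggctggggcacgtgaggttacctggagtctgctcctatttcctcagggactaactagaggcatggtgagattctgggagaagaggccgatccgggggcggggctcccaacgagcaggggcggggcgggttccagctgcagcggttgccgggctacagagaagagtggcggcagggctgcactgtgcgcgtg
The RNA-binding protein gene Msi1 had 95.7 against 8.50 CPM and was 11.3-fold (interval 8.24 to 15.8) higher in GFP-high cells.

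Ascl2, the transcription factor that sets the crypt base stem cell programme, reached 61.9 CPM in GFP-high and 7.69 CPM in GFP-low, 8.05-fold (interval 5.76 to 11.5) higher in the stem cell fraction. Olfm4, a secreted glycoprotein of crypt base cells, had 5791 CPM in GFP-high and 727 CPM in GFP-low, a difference of 7.96-fold (interval 7.70 to 8.24). In the control pair it had 6742 and 1003 CPM. The 2 fractions were well apart for each of these genes, and the interval of each fold lay above 2.

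Other genes among the 15 with the largest ratios are less often used as markers. The glutamate transporter gene Slc1a2 was at 59.5 CPM in GFP-high and 4.65 CPM in GFP-low (12.8-fold (interval 8.40 to 20.4)). Sfrp5, a secreted Wnt antagonist, had 109 CPM in GFP-high and 11.3 CPM in GFP-low, 9.62-fold (interval 7.33 to 12.9), against 40.9 and 8.61 CPM in the control pair. The protocadherin gene Pcdh8 (14.9-fold), the glycosyltransferase gene Extl1 (11.4-fold), the small GTPase gene Arl4c (9.72-fold) and the sodium channel subunit gene Scn2b (7.58-fold) belonged to the same group. So did Jun, a component of the AP-1 factor, at 92.4 against 11.9 CPM, the adhesion molecule gene Esam (13.1-fold (interval 4.91 to 49.6)) and Cbs, an enzyme of homocysteine metabolism (10.5-fold (interval 4.90 to 26.7)). Rgs7bp, a binding partner of G protein regulators, was the least certain of the 15, since its 86 and 2 counts gave 31.8-fold (interval 8.55 to 267).

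All 31 fixed crypt base stem cell markers passed the count filter, 29 of them were at least 2-fold higher in GFP-high cells, and none was higher in GFP-low. The 2 that stayed within 2-fold were Prom1 at 338 against 170.4 CPM and the ephrin receptor gene Ephb2 at 234 against 154 CPM, both with the higher value in GFP-high. Their median log2 ratio was 2.13, against 0.004 over all members, and 2.02 for the same 31 genes in the control pair. Cd44 (5.68-fold), Igfbp4 (6.33-fold), Axin2 (5.01-fold), Smoc2 (3.91-fold), Cdca7 (3.92-fold) and Sox9 (2.83-fold) filled the middle of the range. The crypt base markers thus lay with the GFP-high fraction that the labels call stem cells. Because the cells were sorted by GFP and its driver gene is not named, they are no independent check of that label.

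**Figure D2:**
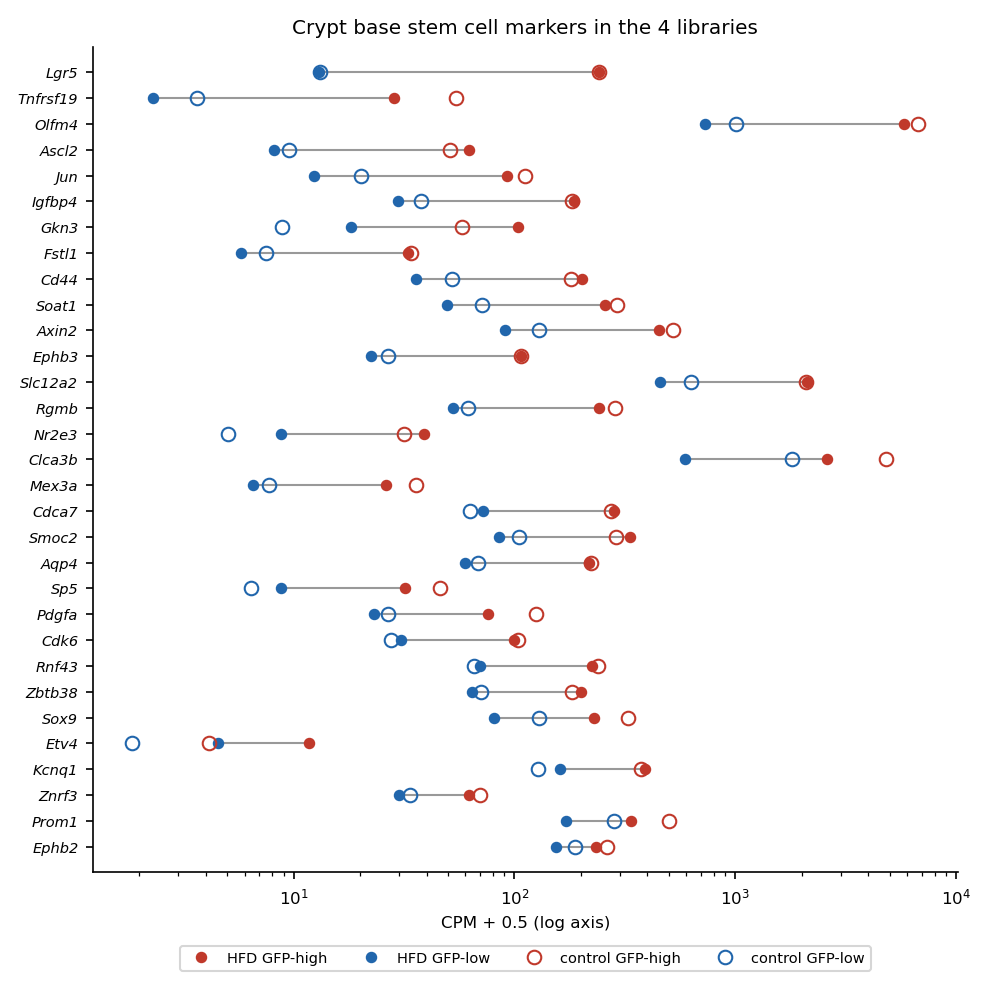
Level of the 31 crypt base stem cell markers in the 4 libraries, as CPM with 0.5 added, on a log axis; filled circles are the HFD pair, joined by a line, and open circles the control pair. In each row the red HFD GFP-high point lies to the right of the blue HFD GFP-low point, from Lgr5 at 242 against 12.5 CPM down to Ephb2.

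Genes once proposed to mark a reserve stem cell were mixed. Of 12 such genes 9 were members, and 2 were higher in GFP-high, namely Msi1 and Lrig1. Lrig1, which restrains ErbB receptors, was at 295 against 131 CPM (2.26-fold (interval 2.06 to 2.47)). Hopx had 85.1 against 45.3 CPM and Bmi1 30.0 against 22.7 CPM, both within 2-fold. Krt19, a keratin gene, was 2.77-fold (interval 2.69 to 2.86) higher in GFP-low cells. Clu, Ly6a and Anxa1, which are used as markers of a regenerating epithelium, had fewer than 20 counts in both HFD libraries.

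Wnt components separated by role. Among 15 R-spondin and Wnt receptors and their regulators, 6 were at least 2-fold higher in GFP-high and none in GFP-low. The frizzled receptor gene Fzd7 had 82.2 CPM in GFP-high and 20.0 CPM in GFP-low (4.11-fold (interval 3.31 to 5.14)), and Fzd2 had 21.1 against 7.89 CPM. Fzd5, another frizzled receptor, stood the other way, at 226 CPM in GFP-high and 447 CPM in GFP-low, 1.98-fold (interval 1.85 to 2.12) higher in GFP-low. Rnf43 and Znrf3, the ligases that remove frizzled receptors from the surface, were 3.23-fold (interval 2.87 to 3.64) and 2.09-fold (interval 1.73 to 2.55) higher in GFP-high cells. The co-receptor genes Lrp5 and Lrp6 and the R-spondin receptor gene Lgr4 differed by no more than 1.20-fold.

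Feedback and target genes of the pathway were the most one-sided of these lists, with 12 of 16 higher in GFP-high, none in GFP-low and a median log2 ratio of 1.73. Besides Ascl2, Axin2 and Tnfrsf19 they included Nkd1, an inhibitor of the pathway, whose 34 and 1 counts gave 25.2-fold (interval 4.22 to 1023). Myc, the transcription factor of growth, was at 188 CPM in GFP-high and 71.0 CPM in GFP-low (2.65-fold (interval 2.35 to 2.99)), and Ccnd1, the cyclin D1 gene, at 169.6 against 131 CPM. By contrast, none of 15 core signalling genes reached 2-fold in either direction (2 in GFP-high with library totals). The scaffold gene Apc had 151 against 157 CPM, the kinase genes Gsk3b 152 against 109 CPM and Gsk3a 115 against 134 CPM, and the nuclear effector Tcf7l2 57.8 against 73.9 CPM. Wnt3, a ligand gene, was at 6.74 against 4.05 CPM, and its interval included equality.

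For Notch, 3 of 14 genes were higher in GFP-high cells and none in GFP-low. The receptor genes Notch1, at 243 CPM in GFP-high and 54.8 CPM in GFP-low (4.43-fold (interval 3.89 to 5.05)), and Notch2, at 93.8 against 32.8 CPM (2.86-fold (interval 2.40 to 3.42)), were 2 of them. Lfng, which modifies Notch receptors with sugars, was the third, at 37.3 against 14.8 CPM, with 31.9 and 24.7 CPM in the control pair. The target gene Hes1 had 92.9 against 47.8 CPM (1.95-fold (interval 1.67 to 2.27)). Ligands were on the other side of the ratio: Dll1 had 90.3 against 135 CPM, Dll4 21.7 against 26.5 CPM and Jag1 13.8 against 25.9 CPM, with larger values in GFP-low cells and within 2-fold. On the control diet Dll1 had 89.8 and 213 CPM and Dll4 27.3 and 67.7 CPM, so both ligands lay farther apart in that pair. The list's median log2 ratio was -0.08 and turned to 0.13 when library totals replaced TMM.

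Eph receptors and ephrins, which keep cells of the crypt base apart from those above, went both ways. Ephb3 was 4.88-fold (interval 3.98 to 6.03) higher in GFP-high cells, at 107 against 21.9 CPM. Efnb2, the ligand of EphB receptors, showed the opposite, with 14.1 CPM in GFP-high and 99.1 CPM in GFP-low, 7.04-fold (interval 5.64 to 8.88) higher in progenitors. Efnb1 was at 81.6 against 138 CPM. Epha4, Epha7 and Efna4 were 3.29-fold, 2.89-fold and 3.10-fold higher in GFP-high, whereas Epha1 was 2.20-fold higher in GFP-low and Epha2 was at 12.0 against 20.8 CPM. In all, 4 of 12 genes were higher in GFP-high and 2 in GFP-low (1 with library totals).

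In the BMP list, 4 of 18 genes were higher in GFP-low and 1 in GFP-high (3 each with library totals). With TMM these are 22.2% and 5.56% of the list, against 8.63% and 6.05% of all members. The higher one in stem cells was Rgmb, a BMP co-receptor, at 239.7 against 52.4 CPM. Those higher in progenitors were Bmp2 (3.07-fold (interval 1.46 to 6.91)), the inhibitory Smad gene Smad6 (3.36-fold (interval 2.22 to 5.19)) and the inhibitors of differentiation Id3 (2.77-fold (interval 2.16 to 3.59)) and Id4 (5.40-fold (interval 2.90 to 10.8)). Bmp2 and Id4 were at 1.65 and 1.95 CPM in GFP-high cells, so their folds rest on few counts.

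The S phase list was the broadest of the proliferation lists: all 34 genes had the higher value in GFP-high cells, and 14 of them passed 2-fold. The replicative helicase genes Mcm4 (141 CPM in GFP-high and 56.3 CPM in GFP-low) and Mcm2 (185 CPM in GFP-high and 80.7 CPM in GFP-low) were 2.51-fold (interval 2.19 to 2.88) and 2.29-fold (interval 2.04 to 2.57) higher. Polymerase genes Pole and Pola1 followed at 2.35-fold and 2.34-fold. At the low end of the list stood Rrm2, a subunit of ribonucleotide reductase, at 68.0 against 60.3 CPM (1.13-fold (interval 0.972 to 1.31)), an interval that includes equality. The median was 0.91 in the HFD pair and 0.72 for the same genes in the control pair, where 4 passed 2-fold. Cdc6, which loads the helicase onto DNA, had 29.8 against 13.2 CPM (2.27-fold (interval 1.71 to 3.05)). A Cdc6 promoter holds the E2F motif TTTCCCGC on the opposite strand, in capitals. Its window lies inside the gene's annotated span, 98907801 to 98923940.
Cdc6 chr11:98907901-98908200 (+ strand): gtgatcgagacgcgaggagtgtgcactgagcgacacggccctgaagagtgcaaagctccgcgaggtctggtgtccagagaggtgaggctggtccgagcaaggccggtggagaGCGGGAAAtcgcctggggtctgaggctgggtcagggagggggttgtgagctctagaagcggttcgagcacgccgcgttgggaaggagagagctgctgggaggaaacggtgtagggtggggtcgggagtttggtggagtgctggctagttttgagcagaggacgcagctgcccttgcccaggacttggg

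Genes of G2 and mitosis were closer to even. None of 32 reached 2-fold (3 with library totals), 31 had the higher value in GFP-high, and the median was 0.44. Mki67, the proliferation marker, had 1134 CPM in GFP-high and 752 CPM in GFP-low (1.51-fold (interval 1.45 to 1.57)). Top2a was at 585 against 326 CPM, Ccnb1 at 23.8 against 21.4 CPM and Cdc20 at 61.0 against 61.9 CPM. The cyclin gene Ccnb2 was even, at 75.8 against 74.5 CPM, and its promoter is shown with the NFY motif CCAAT and the CHR motif TTTGAA in capitals.
Ccnb2 chr9:70421505-70421804 (- strand): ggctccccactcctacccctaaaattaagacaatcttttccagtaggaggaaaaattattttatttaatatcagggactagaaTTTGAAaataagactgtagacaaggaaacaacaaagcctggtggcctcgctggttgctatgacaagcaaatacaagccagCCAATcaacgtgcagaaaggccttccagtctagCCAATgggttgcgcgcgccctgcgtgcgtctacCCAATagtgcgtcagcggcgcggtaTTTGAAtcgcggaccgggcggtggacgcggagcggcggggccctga

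The list of cell cycle inhibitors and D cyclins went both ways but held one of the largest differences of the comparison. Of its 16 members 9 had the higher value in GFP-high and 7 in GFP-low, with a median of 0.04. At 2-fold 3 (18.8%) were higher in GFP-low and 1 (6.25%) in GFP-high, against 8.63% and 6.05% of all members. Cdkn2b, which encodes the CDK4 and CDK6 inhibitor p15, was at 1.35 CPM in GFP-high and 52.0 CPM in GFP-low, 38.6-fold (interval 20.0 to 85.3) higher in progenitors. Cdkn1a (p21) had 11.1 against 67.6 CPM (6.10-fold (interval 4.73 to 7.95)), and the retinoblastoma gene Rb1 41.6 against 90.2 CPM. Cdk6 was the counterpart, with 98.7 CPM in GFP-high and 30.1 CPM in GFP-low, 3.27-fold (interval 2.74 to 3.94) higher in stem cells. In the control pair Cdkn2b had 1.63 and 49.6 CPM, a near copy of the HFD levels.

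Ribosome biogenesis genes had a median of 0.58, with 2 of 31 past 2-fold, Myc and Mycl, a share of 6.45% near the 6.05% of all members. With library totals 10 of the 31 passed. Nop56, of the nucleolar particles that modify ribosomal RNA, was at 167 against 86.8 CPM, and Polr1b, a subunit of RNA polymerase I, at 78.1 against 40.9 CPM. Among 27 DNA methylation and Polycomb genes 5 were higher in GFP-high and none in GFP-low. Dnmt1 and its partner Uhrf1, which copy DNA methylation after replication, were 2.12-fold (interval 1.96 to 2.29) and 2.11-fold (interval 1.85 to 2.41) higher, and the demethylase gene Tet1 3.29-fold (interval 1.96 to 5.83). Tet3, of the same enzyme family, had 143 against 247 CPM.

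The progenitor side was led by genes of the absorptive cell. Of 24 enterocyte markers 21 were at least 2-fold higher in GFP-low, none was higher in GFP-high, and the median was -2.82. Alpi, intestinal alkaline phosphatase, had 37.3 CPM in GFP-high and 859 CPM in GFP-low (23.0-fold (interval 20.3 to 26.3)), with 6.52 and 245 CPM in the control pair. Rbp2, which binds retinol in the enterocyte, had 16.5 CPM in GFP-high and 364 CPM in GFP-low (22.1-fold (interval 18.2 to 27.1)). Sis, which encodes sucrase-isomaltase, was at 112 CPM in GFP-high and 1998 CPM in GFP-low (17.9-fold (interval 16.6 to 19.3)). Promoters of Alpi and Rbp2 follow, each with the HNF4 motif CAAAGTCC (or its reverse complement in Rbp2) in capitals. The Rbp2 window lies inside the gene's annotated span, 98486115 to 98509781.
Alpi chr1:87101557-87101856 (- strand): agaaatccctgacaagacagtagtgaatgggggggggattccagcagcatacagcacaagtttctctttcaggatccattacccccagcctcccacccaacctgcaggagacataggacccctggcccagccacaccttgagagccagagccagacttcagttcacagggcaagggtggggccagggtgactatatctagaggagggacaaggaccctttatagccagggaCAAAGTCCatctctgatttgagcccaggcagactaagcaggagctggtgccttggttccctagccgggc
Rbp2 chr9:98490287-98490586 (+ strand): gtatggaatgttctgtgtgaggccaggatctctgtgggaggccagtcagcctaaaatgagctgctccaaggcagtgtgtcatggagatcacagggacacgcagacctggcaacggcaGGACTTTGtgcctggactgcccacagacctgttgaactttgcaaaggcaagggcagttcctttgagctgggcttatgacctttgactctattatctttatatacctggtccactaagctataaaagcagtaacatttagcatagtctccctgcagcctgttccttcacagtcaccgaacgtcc
In the control pair Sis had 10.3 and 456 CPM, so Alpi and Sis were higher in both HFD libraries than in the matching control libraries.

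All 18 digestive enzymes of the brush border had the lower value in stem cells (17 with library totals), 15 of them past 2-fold, with a median of -2.50. Lct (lactase) had 2.40 against 59.3 CPM (24.7-fold (interval 15 to 43.8)), and the aminopeptidase gene Enpep 17.1 against 337 CPM (19.7-fold (interval 16.3 to 24.1)). Mep1b, a meprin subunit, had 7.19 against 98.1 CPM. The 3 within 2-fold were Dpp4 at 160.3 against 170.0 CPM, Mgam at 870.4 against 1385 CPM and Mep1a at 29.5 against 48.6 CPM. Dpep1, a membrane dipeptidase outside that list, had the lowest log2 ratio of the comparison, -5.51. It had 3 and 211 counts, or 0.449 CPM in GFP-high and 42.7 CPM in GFP-low, 95-fold (interval 32.1 to 464) higher in progenitors. In the control pair it was at 1.63 and 22.4 CPM. The 15 lowest ratios also took in the apolipoprotein L gene Apol10a (4.64 against 154 CPM), the sulfate activation gene Papss2 (12.6 against 293 CPM), the inositol transporter gene Slc5a11 (104-fold (interval 18.1 to 4161), from 1 and 77 counts) and the alkaline phosphatase gene Alppl2 (90.5-fold (interval 15.7 to 3627), from 1 and 67 counts).

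Transporters of the brush border and the basal membrane came out alike, with 22 of 24 higher in GFP-low and none in GFP-high. Slc9a3, the sodium-proton exchanger NHE3, had 0.899 CPM in GFP-high and 49.0 CPM in GFP-low (54.5-fold (interval 24.7 to 149.9)). The neutral amino acid transporter gene Slc6a19 had 1.35 against 35.0 CPM and the glucose transporter gene Slc2a2 1.5 against 32.0 CPM. Slc51a, a subunit of the basolateral bile acid exporter, was at 7.49 against 102 CPM (13.6-fold (interval 10.1 to 18.6)). Fabp6, which binds bile acids inside the ileal enterocyte, was at 1.20 against 27.3 CPM, against 2.17 and 15.4 CPM in the control pair.

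Structural genes of the microvillus separated less, with 6 of 18 past 2-fold (2 with library totals) and a median of -0.76. Cdhr5, a cadherin that links microvilli, had 114 against 509 CPM (4.44-fold (interval 4.10 to 4.83)), and the motor gene Myo1a 321 against 989 CPM (3.08-fold (interval 2.93 to 3.24)). Cdhr2, the partner of Cdhr5, was 2.07-fold (interval 1.90 to 2.25) higher in GFP-low. Its promoter holds the HNF1 motif GTTAATNAT, in capitals.
Cdhr2 chr13:54701213-54701512 (+ strand): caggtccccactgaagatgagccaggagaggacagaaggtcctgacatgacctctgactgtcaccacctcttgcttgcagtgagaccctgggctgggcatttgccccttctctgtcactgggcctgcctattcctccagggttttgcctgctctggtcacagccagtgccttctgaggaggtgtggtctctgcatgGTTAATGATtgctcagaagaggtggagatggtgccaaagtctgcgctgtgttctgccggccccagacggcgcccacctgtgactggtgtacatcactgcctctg
Vil1 (villin) was high in both fractions, at 390.0 CPM in GFP-high and 819 CPM in GFP-low. Myo7b, another motor of the brush border, was even, at 395 against 400.0 CPM. The keratin genes Krt20 and Krt8 were 14.2-fold (interval 11.5 to 17.8) and 2.49-fold (interval 2.43 to 2.56) higher in GFP-low, whereas Cldn2, a claudin of the crypt, was 2.31-fold (interval 2.13 to 2.52) higher in GFP-high.

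Transcription factors of the absorptive and secretory programmes had a median log2 ratio of -0.45, against -2.82 for enterocyte and -2.14 for goblet markers. Single factors went from -3.81 to 1.77, and 30.8% of the list was higher in GFP-low, against 8.63% of all members. Hnf4a was even, at 1129 CPM in GFP-high and 1088 CPM in GFP-low, and so were Cdx1 at 225 against 227 CPM and Cdx2 at 199.8 against 200.1 CPM. Hnf4g, a close relative of Hnf4a, was 3.82-fold (interval 3.51 to 4.16) higher in progenitors at 109 against 416 CPM. Maf had 6.44 against 96.7 CPM (15-fold (interval 11 to 21.0)), Creb3l3 28.6 against 172 CPM (6.01-fold (interval 5.13 to 7.07)) and Klf4 40.4 against 115 CPM (2.83-fold (interval 2.45 to 3.29)). Sox4 was the 1 factor of the 26 that was higher in stem cells, at 295 against 86.0 CPM (3.42-fold (interval 3.08 to 3.81)), while 8 were higher in progenitors; with library totals the counts were 2 and 6.

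**Figure D3:**
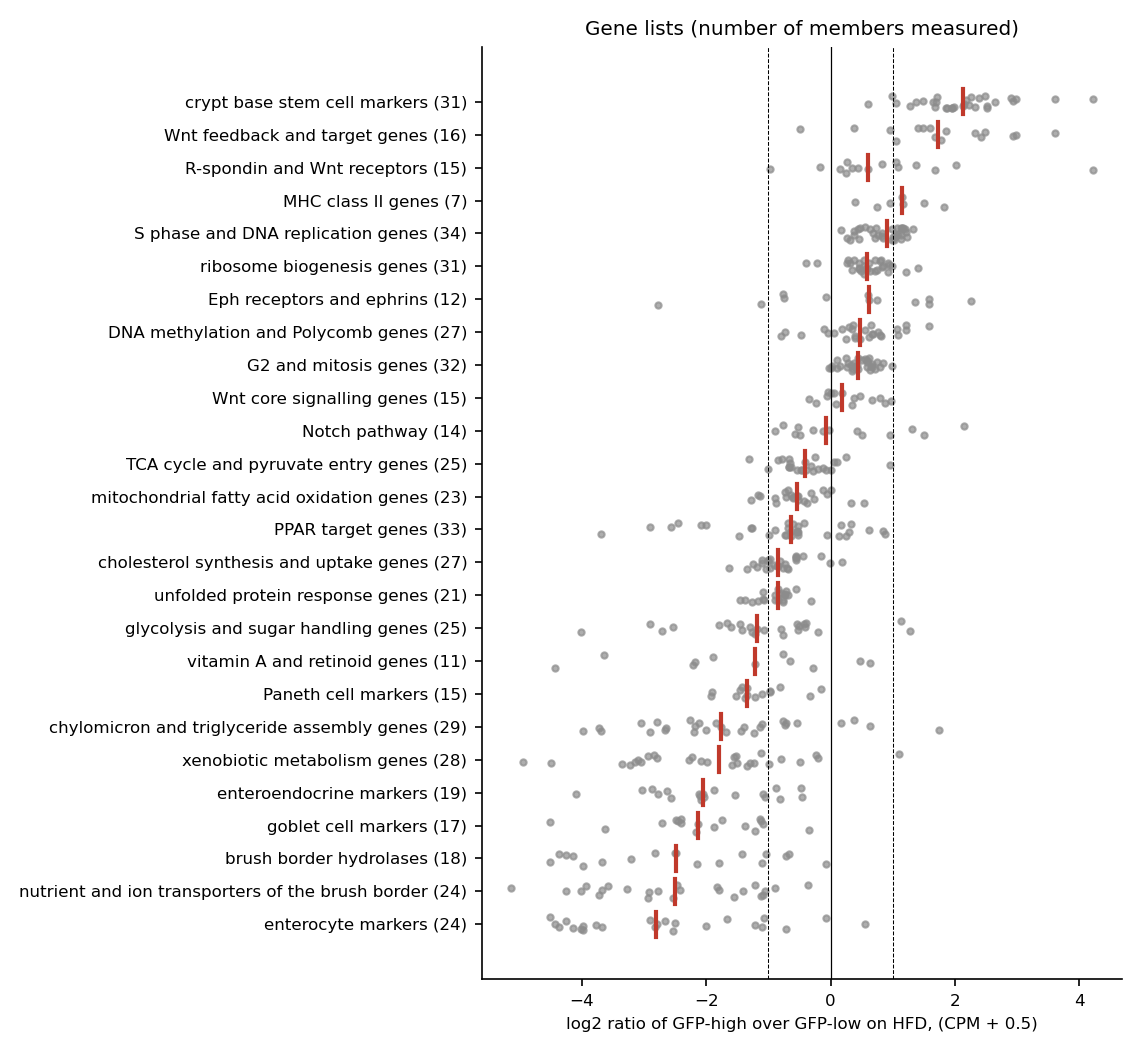
HFD log2 ratio (GFP-high over GFP-low) for the members of 26 gene lists; each grey point is a gene, red bars are list medians and dashed lines mark 2-fold. Lists are ordered by role from crypt base markers (median 2.13) at the top to enterocyte markers (median -2.82) at the bottom, with the Wnt core genes and the G2 and mitosis genes inside the dashed lines.

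Lipid handling followed the absorptive genes in part. Of 29 genes for triglyceride and chylomicron assembly, 21 were higher in GFP-low and 1 in GFP-high. Apoa1, an apolipoprotein gene, had 15.7 CPM in GFP-high and 255 CPM in GFP-low (16.2-fold (interval 13.3 to 20.0)). Mttp, which loads lipid onto apolipoprotein B, had 152 CPM in GFP-high and 1065 CPM in GFP-low (7-fold (interval 6.54 to 7.49)), and Mogat2, of monoacylglycerol re-esterification, 7.79 against 109 CPM (14.1-fold (interval 10.6 to 19.1)). Fabp1, a fatty acid binding protein, was at 113 CPM in GFP-high and 852 CPM in GFP-low (7.51-fold (interval 6.95 to 8.13)). The exception was Abca1, a cholesterol exporter, with 14.7 against 4.05 CPM, 3.63-fold (interval 2.23 to 6.20) higher in stem cells.

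PPAR receptors are nuclear receptors for fatty acids. Of 33 PPAR target genes, 9 were higher in GFP-low and none in GFP-high (2 with library totals), and the median was -0.63. Besides Fabp1 these included Fabp2 (103 against 414 CPM), Cd36 (2 counts in GFP-high, 33.1-fold (interval 8.69 to 281)) and Cyp4a10 (2.10 against 13.8 CPM).

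Pdk4 and Angptl4, targets that respond to fatty acids, were nearly even on HFD. Pdk4 had 19.9 against 16.8 CPM (1.19-fold (interval 0.895 to 1.58)) and Angptl4 20.8 against 18.6 CPM (1.12-fold (interval 0.853 to 1.47)). The control pair had 2.53 and 0.906 CPM for Pdk4. The receptor genes themselves were lower in stem cells and within 2-fold, with Ppara at 26.7 against 52.0 CPM, Ppard at 162 against 286 CPM and Pparg at 7.79 against 12.5 CPM. Cpt1a, which admits fatty acids to the mitochondrion, had 316 against 457 CPM (1.45-fold (interval 1.36 to 1.54)).

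For mitochondrial fatty acid oxidation as a whole, 3 of 23 genes passed 2-fold (1 with library totals), all higher in GFP-low: Slc25a20 (2.44-fold (interval 2.07 to 2.90)), Acsl5 (2.24-fold (interval 2.06 to 2.44)) and Crat (2.20-fold (interval 1.86 to 2.61)). These 3 are 13.0% of the list, against 8.63% of all members. The median was -0.54, and 2 genes had the higher value in stem cells, Acsl1 and Acsl3. Of the 7 ketone body genes none passed 2-fold. Among TCA cycle genes, Mdh2 (343 against 856 CPM) and Ogdh (331 against 664 CPM) were the 2 of 25 past 2-fold, both higher in GFP-low. That is 8% of the list, near the 8.63% of all members. The 12 protein genes of the mitochondrial genome had a median of -0.19, which became 0.02 with library totals.

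Cholesterol genes leaned the same way. Of 27 genes 8 were higher in GFP-low, none in GFP-high, and 26 had the larger value in progenitors, which became 3 and 24 with library totals for the first and the last count. Msmo1 had 28.0 against 87.8 CPM (3.13-fold (interval 2.63 to 3.74)), Hmgcs1 112 against 256 CPM (2.29-fold (interval 2.09 to 2.51)) and Cyp51 62.2 against 148 CPM (2.38-fold (interval 2.11 to 2.69)). Their regulator Srebf2 was at 200.4 against 273 CPM. The fatty acid synthesis list was mixed, with a median of -0.15, and 9 of its 15 members had the higher value in GFP-low. At 2-fold 2 (13.3%) were higher in GFP-low and 1 (6.67%) in GFP-high, against 8.63% and 6.05% of all members. The 1 higher in stem cells was the fatty acid desaturase gene Fads1, 2.26-fold (interval 2.05 to 2.48). It was at 269 CPM in GFP-high and 119 CPM in GFP-low, and Fads2 was at 364 against 202 CPM.

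Sugar metabolism lay mostly on the progenitor side. Of 25 genes 23 had the higher value in GFP-low, and the median was -1.18. At 2-fold 13 were higher in GFP-low and 2 in GFP-high. The fructose kinase gene Khk (55.7 against 194 CPM) and the fructose transporter gene Slc2a5 (6.59 against 40.5 CPM) were 3.49-fold (interval 3.09 to 3.94) and 6.14-fold (interval 4.41 to 8.71) higher in progenitors. Hk2, a hexokinase, was higher in stem cells at 99.9 against 41.3 CPM (2.42-fold (interval 2.07 to 2.85)), while the control pair was even at 105 and 102 CPM. Pck2 was the other, at 94.5 against 42.7 CPM.

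Retinoid genes lay farther apart on HFD than in the control pair. Their median log2 ratio was -1.22 on HFD and -0.46 for the same 11 genes on the control diet. Adh1, an alcohol dehydrogenase that acts on retinol, had 157 CPM in GFP-high and 583 CPM in GFP-low (3.71-fold (interval 3.45 to 3.98)) against 451 and 553 CPM in the control pair. Aldh1a1, which makes retinoic acid, had 6.89 against 92.3 CPM (13.4-fold (interval 9.87 to 18.6)), and Retsat 76.7 against 179 CPM against 42.5 and 58.9 CPM. These differences between pairs rest on 1 library for each diet and fraction and were not tested.

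Detoxification genes were mostly higher in progenitors, in 22 of 28 cases, with none higher in stem cells. Gsta1, a glutathione transferase, had 1.65 CPM in GFP-high and 66.0 CPM in GFP-low (40.0-fold (interval 22.1 to 81.0)), the carboxylesterase gene Ces1f 5.54 CPM in GFP-high and 136 CPM in GFP-low (24.5-fold (interval 17.6 to 35.1)) and Cyp3a13 5.24 against 58.1 CPM (11.1-fold (interval 7.78 to 16.2)). Whole gene families gave the same picture, since 8 of 9 UDP glucuronosyltransferases, 7 of 8 carboxylesterases and 15 of 25 cytochromes P450 were higher in GFP-low. Cyp2e1 was an exception, with 50.6 CPM in GFP-high and 8.70 CPM in GFP-low (5.82-fold (interval 4.23 to 8.19)). Genes of the Ugt1a locus share exons, so their reads cannot be divided with certainty.

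Secretory lineages were also lower in the stem cell fraction. Of 17 goblet cell markers 16 were at least 2-fold higher in GFP-low, and the median was -2.14. Zg16, a lectin of goblet granules, had 50.6 CPM in GFP-high and 1172 CPM in GFP-low (23.1-fold (interval 20.7 to 25.9)). Clca1 was at 133 against 1656 CPM (12.5-fold (interval 11.6 to 13.4)), and the mucin gene Muc2 at 178 CPM in GFP-high and 982 CPM in GFP-low (5.52-fold (interval 5.18 to 5.89)). Tff3, a trefoil peptide gene, had 251 against 1126 CPM. Atoh1, the factor that opens the secretory programme, was less separated at 38.1 against 81.7 CPM (2.15-fold (interval 1.83 to 2.52)), as was its target Spdef at 28.8 against 67.6 CPM.

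The goblet list differed in one direction between the diets. For 17 of 17 the log2 ratio was closer to 0 on HFD than in the control pair, by a median of 1 on the log2 scale, against 0.01 over all genes with a ratio in both pairs. The control levels of Muc2 were 246 and 2701 CPM and those of Zg16 54.5 and 2899.9 CPM. All 17 were lower in HFD GFP-low than in control GFP-low cells, with a median log2 ratio of -0.98, whereas the GFP-high libraries differed by -0.09. The smaller separation thus came with lower levels in the progenitor library. These are single libraries, and the difference between the diets was not tested.

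Enteroendocrine markers, which encode gut hormones and their processing machinery, behaved likewise. Of 19 members 14 were higher in GFP-low and none in GFP-high. The granin genes Chgb and Chga had 48.5 CPM in GFP-high and 288 CPM in GFP-low (5.93-fold (interval 5.25 to 6.71)) and 10.6 CPM in GFP-high and 75.7 CPM in GFP-low (7.11-fold (interval 5.51 to 9.30)). In the control pair they were at 35.7 and 665 CPM and 7.6 and 216 CPM. For 17 of the 18 genes with a ratio in both pairs the ratio was higher on HFD, by a median of 1.28, and 17 were lower in HFD GFP-low than in control GFP-low. Unlike the goblet genes, 14 of the 18 were higher in HFD GFP-high than in control GFP-high.

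Single hormone genes had few counts. Tph1, which makes serotonin, had 17 and 62 counts on HFD, or 2.55 against 12.5 CPM, and 0.362 and 27.2 CPM in the control pair. Gcg, the proglucagon gene, was at 12.0 against 51.2 CPM (4.27-fold (interval 3.31 to 5.56)), with 6.52 and 128 CPM in the control pair. Cck was at 1.80 against 38.6 CPM (21.5-fold (interval 12.0 to 42.3)). The early factor Neurog3 was closest to even, at 17.4 against 24.1 CPM (1.39-fold (interval 1.06 to 1.81)).

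**Figure D4:**
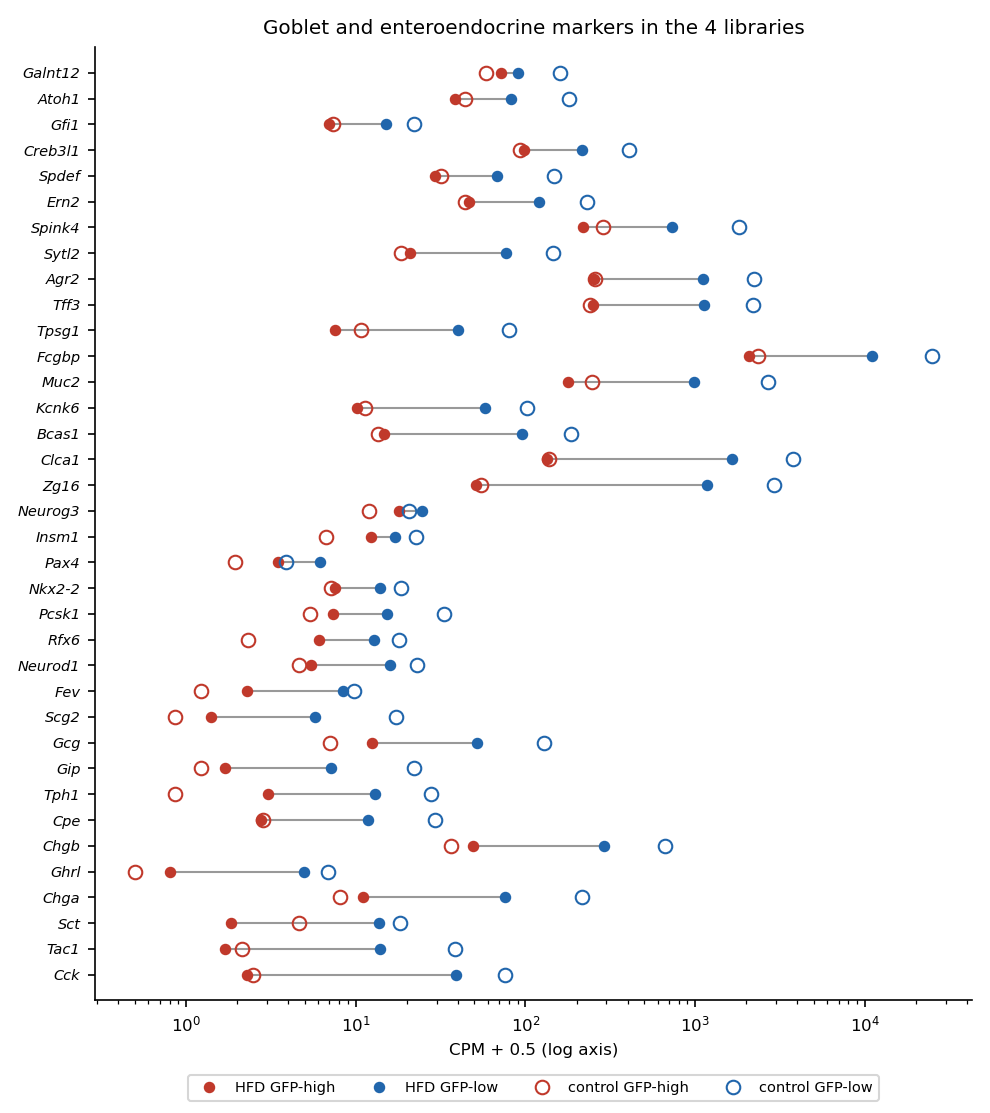
Level of 17 goblet and 19 enteroendocrine markers in the 4 libraries, as CPM with 0.5 added, on a log axis; filled circles are the HFD pair, joined by a line, and open circles the control pair. Blue open circles (control GFP-low) lie to the right of blue filled circles (HFD GFP-low) for all 17 goblet genes, for example Muc2 at 2701 against 982 CPM.

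Paneth cell genes were higher in GFP-low for 10 of 15, with a median of -1.34. Lyz1 (lysozyme) had 231 CPM in GFP-high and 585 CPM in GFP-low (2.53-fold (interval 2.38 to 2.69)), and the lectin gene Itln1 94.8 against 257 CPM (2.71-fold (interval 2.46 to 2.99)). The protease gene Mmp7 was within 2-fold, at 35.2 against 44.3 CPM. The alpha-defensin genes are near copies of each other, so the split of reads among them is uncertain. Of 16 tuft cell markers 3 reached 20 counts, and 1 of them, Avil, was higher in GFP-low (3.75 against 8.70 CPM).

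**Figure D5:**
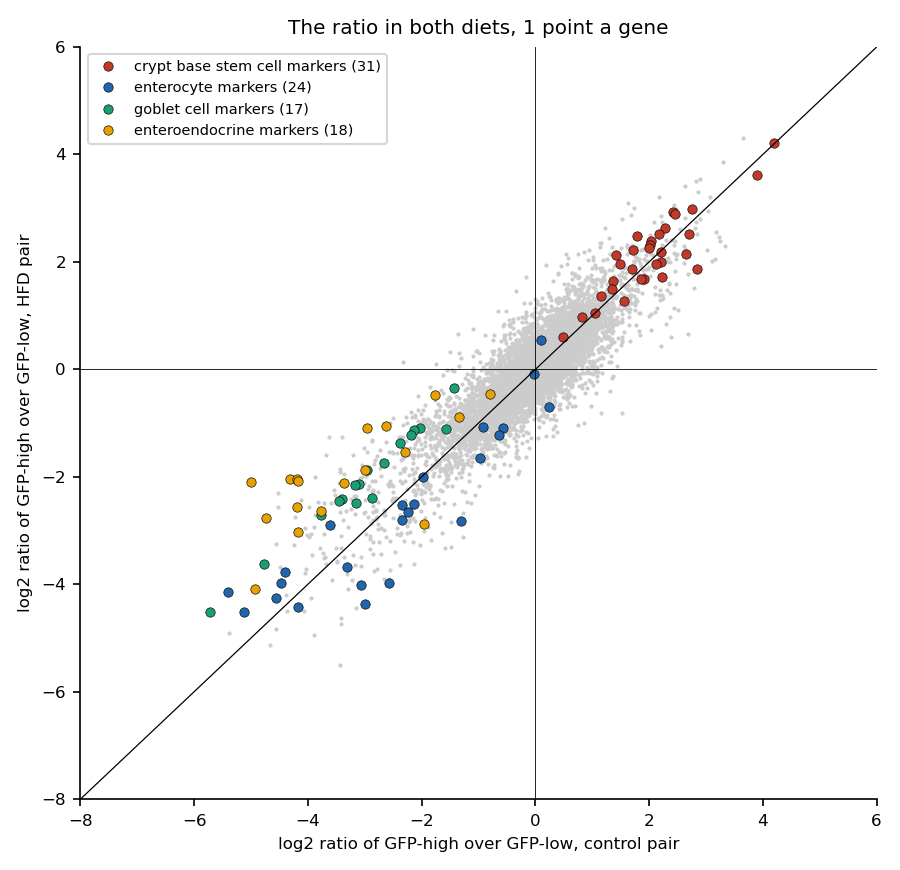
Log2 ratio (GFP-high over GFP-low) in the control pair (x axis) and the HFD pair (y axis) for the 10618 genes with at least 20 counts in both pairs (grey), with 4 marker lists in colour. All 17 goblet genes and 17 of 18 enteroendocrine genes lie above the line of equal ratios, stem cell markers near it, and 17 of 24 enterocyte markers below it.

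Across the 10618 genes with a ratio in both pairs, the HFD and control ratios had a Pearson r of 0.877, given as a description since genes are not independent samples. Of the 664 genes higher in GFP-high on HFD, 357 (53.8%) had the same call in the control pair, which was 63.0% of the control's 567, and none had the opposite call. Of the 947 higher in GFP-low, 664 (70.1%) were shared, 68.4% of the control's 971, again with none opposite. The separation differed by at least 2-fold between the pairs for 280 genes. On the side where the ratio was higher on HFD stood Tph1, Gcg, Chga, Rgs2, Rfx6 and Chgb, and also Casc4 and Tpbg. The other side included Dpep1, Vnn1, Pcdh19, Adh1, Rpph1, Emp1 and Fabp6. Rgs2, a regulator of G protein signalling, had a log2 ratio of -2.57 on HFD and -4.52 in the control pair, and the membrane protein gene Emp1 had -3.63 and -2.13.

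Antigen presentation genes of MHC class II were the immune group that was higher in stem cells, 4 of 7 members past 2-fold. H2-Eb1 had 26.5 CPM in GFP-high and 7.08 CPM in GFP-low (3.74-fold (interval 2.59 to 5.55)) and Cd74, the invariant chain, 183 CPM in GFP-high and 81.1 CPM in GFP-low (2.25-fold (interval 2.01 to 2.53)). Ciita, which switches the class on, was at 14.5 against 6.27 CPM, and H2-Ab1 at 32.4 against 16.4 CPM. Levels were far larger in the control pair, where H2-Ab1 was at 343 and 226 CPM. MHC genes are near copies of each other, so the split of reads is uncertain. The leukocyte gene Ptprc (CD45) had 0 counts in all 4 libraries, and 1 of 21 matched leukocyte markers, Itgam, reached 20 counts; the summed leukocyte list was 13.5 CPM in GFP-high and 25.9 CPM in GFP-low. Col1a1 also had 0 counts in all 4 libraries, and the part of other cells in the class II values was not tested.

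Antimicrobial genes went the other way, with 8 of 15 higher in GFP-low. Reg1 had 12.6 against 155 CPM (12.3-fold (interval 9.82 to 15.6)) and Reg3g 6.89 against 48.0 CPM (6.96-fold (interval 5.06 to 9.76)). The Reg3 genes are close copies, and the values of Reg3b (2.25 against 36.0 CPM) carry the same limit. Muc4, a transmembrane mucin, was higher in stem cells but within 2-fold, at 729 against 484 CPM. Of 19 class I and interferon genes 1 passed 2-fold, Irf7, at 5.54 against 12.7 CPM, a share below that of all members.

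Unfolded protein response genes were higher in GFP-low for 7 of 21 (3 with library totals) and never in GFP-high. Hspa5 (BiP), the main chaperone of the endoplasmic reticulum, had 326 against 694 CPM (2.13-fold (interval 2.02 to 2.25)), Manf 63.8 against 155 CPM (2.42-fold (interval 2.15 to 2.73)) and Selenos 21.6 against 60.3 CPM (2.80-fold (interval 2.28 to 3.43)). Ern2, a sensor found in goblet cells, was at 46.1 against 119.8 CPM. In the control pair 16 of the 21 passed 2-fold.

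Ion transport for fluid secretion lay on the stem cell side. Slc12a2, the chloride uptake cotransporter, was at 2119 CPM in GFP-high and 456 CPM in GFP-low (4.65-fold (interval 4.45 to 4.86)). The potassium channel genes Kcnq1 (2.43-fold (interval 2.24 to 2.64)) and Kcne3 (2.25-fold (interval 2.02 to 2.52)) were higher too, and the chloride channel gene Cftr was at 315 against 196 CPM. Guca2a and Guca2b, which encode peptides that raise fluid secretion, were 4.39-fold (interval 3.92 to 4.92) and 3.93-fold (interval 3.03 to 5.14) higher in progenitors.

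Large gene families were counted in the same way. Of 278 zinc finger genes 223 had the higher value in GFP-high, 24 passed 2-fold (47 with library totals) and none passed in GFP-low. Over all members 5523 of 10979 had the higher value in GFP-high, and the 8.63% of zinc finger genes past 2-fold compares with 6.05% of all members. Zfp618 had 15.9 against 3.44 CPM (4.62-fold (interval 2.75 to 8.22)). All 35 complex I subunit genes had the higher value in GFP-low cells (34 with library totals), with none past 2-fold and a median of -0.47, and 61 of 67 cytosolic ribosomal protein genes had the higher value in GFP-high, with a median of 0.29. Both medians kept their sign with library totals, at -0.26 and 0.50. Of the 82 matched ribosomal protein genes, 15 had fewer than 20 counts in both HFD libraries. Reads that ribosomal protein genes share with near copies may have been lost or divided in counting. The ratios of this family are therefore uncertain, and the part of near copies in them was not tested. Of 218 solute carrier genes 59 were higher in GFP-low and 18 in GFP-high, where the shares of all members were 8.63% and 6.05%. The GFP-high count is near the share of all members. Annexin A2 (Anxa2), a membrane-binding protein, was at 35.8 against 237 CPM (6.61-fold (interval 5.74 to 7.62)).

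Gene length moved with the ratio. Genes counted as higher in GFP-low had a median exonic length of 3494 bases, those higher in GFP-high 5095, and all members 4538. In the quartile of the shortest genes 13.6% were higher in GFP-low, and in the quartile of the longest genes 4.99%. GC content had medians of 50.6% and 51.1% in the 2 sets. The share higher in GFP-low went from 5.25% in the quartile of lowest GC content to 11% in the highest, and the share higher in GFP-high from 4.96% to 7.01%. The part of length and GC content in the gene lists was not tested.

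Promoter sequences were read from RefSeq (GRCm38.p6), 250 bases before to 50 after each start, for 8767 of the 10709 members outside chromosome 18. A gene could have several starts and held a motif if any of its promoters did. The mean was 1.28 starts for members, 1.31 for genes higher in GFP-high, 1.33 for those higher in GFP-low and 1.04 for G2 and mitosis genes. Each promoter was searched on both strands for 11 short motifs. The 6 promoters printed above were chosen because they hold at least 1 of them, and each is the gene's first promoter with the motif. Among promoters of genes higher in GFP-low, 4.77% held the HNF4 motif, against 1.81% of all members and 1.11% of genes higher in GFP-high. The HNF1 motif was in 2.39%, 0.548% and 0.370% of the same sets. E2F showed the reverse, at 6.30% of genes higher in GFP-high, 2.56% of all members and 0.398% of genes higher in GFP-low. TCF/LEF matches were in 4.44%, 3.07% and 2.65%, which is a smaller difference. Of the 28 matched G2 and mitosis genes 75% held the CHR motif and 82.1% the NFY motif, against 14.4% and 43.5% of all members, although the ratios of that list were close to even. The PPAR motif (AGGTCAAAG) was in 0.556% of genes higher in GFP-high, 0.411% of all members and 0.531% of genes higher in GFP-low. In the same order, the CDX motif was in 2.04%, 2.05% and 2.65%, and the GATA motif in 2.59%, 2.30% and 3.98%. The Myc motif CACGTG was in 11.3%, 12.2% and 8.75%, and the SREBP motif in 1.11%, 1.39% and 2.25%. A match shows only that these letters lie in the window.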

How the data were processed

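Poly(A) RNA was sequenced as strand-specific libraries, per the labels' protocols. The authors deposited raw counts of reads per gene, not normalized, for 38124 gene IDs in each of the 4 libraries. The tools cutadapt, TopHat 1.4.1 and HTSeq appear in the submitters' processing notes, as do GRCm38 and mm10. Which annotation and which strand option were used for counting is not given in the sources used here. Reads of overlapping genes on opposite strands cannot therefore be assigned with certainty. A symbol was found for 36345 of the IDs.

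From the counts, library sizes were scaled by TMM over the 4 libraries (edgeR 4.0.16, R 4.3.3). Log2 ratios used 0.5 CPM added to each level. Genes were members at 20 counts in either HFD library and counted at 2-fold with 5 CPM in the higher library. A gene with 0 counts can be as high as 0.449 CPM in HFD GFP-high and 0.607 CPM in HFD GFP-low (3 counts). Intervals are exact 95% intervals of a ratio of 2 Poisson counts. Their code was run on simulated Poisson counts, which hold no spread beyond counting error. That run cannot show whether the intervals are too narrow for these libraries. With 1 pooled library a group no test was run. The members and the 47 gene lists were chosen with earlier results of these data known. Named genes were the 15 highest and 15 lowest log2 ratios at 10 CPM, the 3 highest and lowest of a list, the 8 largest differences between the pairs in each direction, and genes fixed by name; further list members named for their role were chosen after their values were seen. Some genes that the rule names are not reported here. Positions came from GENCODE M21 (GRCm38) and promoters from RefSeq. Other scalings, including DESeq2 1.42.0 size factors, pseudocounts and filters were tried.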

Additional observations from a re-analysis of the deposited data

Results flagged for a closer look

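Of the 753 named or listed genes with a ratio in both pairs, 10 pointed in opposite directions on the 2 diets with both counting intervals clear of equality. With library totals 7 of them still did, and 3 did not: Erbb3 became 0.05 on HFD, and in the control pair Ccnd2 became 0.09 and Hnf4a 0.11. Each diet has 1 library a fraction, so these differences between diets were not tested, and sample-to-sample spread cannot be told apart from them. Casc4, a Golgi membrane protein gene, had a log2 ratio of 0.65 on HFD (11.7 against 7.28 CPM in GFP-high and GFP-low) and -1.36 in the control pair (8.15 against 21.7 CPM). For Tpbg, a membrane glycoprotein gene that inhibits Wnt signalling, the log2 ratio was 0.75 on HFD, from 11.2 and 6.48 CPM, and -1.10 in the control pair, from 6.70 and 15 CPM. Vnn1, a pantetheinase gene and PPAR target, had a log2 ratio of -0.99 on HFD (7.49 against 15.4 CPM in GFP-high and GFP-low) and 0.86 in the control pair (26.8 against 14.5 CPM). For Rpph1, the RNA component of RNase P, which lies within the annotated span of Ccnb1ip1, the log2 ratio was -1.17 on HFD, from 28.5 and 64.5 CPM, and 0.38 in the control pair, from 208 and 159 CPM. Fbp1, a gluconeogenic enzyme gene, had a log2 ratio of -0.40 on HFD (34.6 against 45.9 CPM in GFP-high and GFP-low) and 0.48 in the control pair (27.0 against 19.3 CPM). For Mlxipl, a carbohydrate-responsive factor gene, the log2 ratio was -0.34 on HFD, from 406 and 515 CPM, and 0.21 in the control pair, from 340.3 and 294 CPM. Erbb3, a receptor gene of the EGF receptor family, had a log2 ratio of -0.16 on HFD (323 against 361 CPM in GFP-high and GFP-low) and 0.25 in the control pair (444 against 373 CPM). For Atp1b1, a sodium pump subunit gene, the log2 ratio was -0.28 on HFD, from 939 and 1139 CPM, and 0.09 in the control pair, from 889.8 and 836 CPM. Ccnd2, the cyclin D2 gene, had a log2 ratio of 0.20 on HFD (423 against 367 CPM in GFP-high and GFP-low) and -0.08 in the control pair (488 against 517 CPM). For Hnf4a, the nuclear receptor gene of the absorptive programme, the log2 ratio was 0.05 on HFD, from 1129 and 1088 CPM, and -0.06 in the control pair, from 1108 and 1158 CPM. Rpph1 is a short RNA without a poly(A) tail, and its level was lower in both HFD libraries than in both control libraries.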

How the results depend on the processing

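No paired analysis was possible because the labels give the libraries no replicate numbers and each group has 1 library, so no library could be left out either. The counts of 664 genes higher in GFP-high and 947 higher in GFP-low became 1067 and 692 with library totals, 1155 and 1524 with no filter on counts or CPM, 423 and 642 at 100 counts or more, and 267 and 613 when the bound of the interval had to pass 2-fold. DESeq2 size factors (672 and 942), TMM over the HFD pair alone (737 and 888), upper quartile scaling (783 and 846), pseudocounts of 0.1 CPM (709 and 978) or 2 CPM (513 and 842) and leaving out mitochondrial genes (725 and 992) stayed within 1.5 times. Library totals moved the median of all genes by 0.209 on the log2 scale. They turned the sign of 5 of 44 list medians: Notch (0.13), EGF receptor family (0.14), fatty acid synthesis (0.06), integrins (0.10) and mitochondrially encoded genes (0.02). The EGF list also turned, to 0.27, at 100 counts. Of the 90 named ratios 1 changed sign, that of Cdx2, which was even at -0.002 and became 0.211 with library totals, 0.002 with DESeq2 size factors and 0.039 with TMM over the HFD pair. At 100 counts in both pairs, 7658 genes gave a Pearson r of 0.918. Depth limits low genes: 510 members were under 5 CPM in both HFD libraries.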
